A study of Mus musculus with 12 samples.

Results

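A set of 39 protein-coding genes was described that were higher with LPS in bone marrow-derived dendritic cells (BMDC) and higher still when JSH-23 had been given before LPS. The 39 genes were chosen by measured values, out of 14357 genes with enough reads to test and 55335 genes listed: a mean of at least 2 CPM (counts scaled to a common library total) in WTL, a WTL/WT ratio of at least 2 and a ratio of WTL + JSH23 to WTL of at least 1.4. Gene families with symbols beginning Slc, Zfp, Trim, Arhg, Dock, Rab or Hist were to be left out, which removed 0 genes that met the 3 conditions. Of 692 protein-coding genes that met both LPS conditions, these 39 made up 5.64%, whereas 276 genes (39.9%) had a JSH-23 ratio of 1/1.4 or less and 377 lay between. The LPS ratio, the JSH-23 ratio under LPS and the difference between JSH-23 effects with and without LPS are therefore given as descriptions, with no test. All 39 genes passed the filter on low counts.

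RNA was measured in 12 libraries, 3 for each of 4 groups, from C57BL/6 mice that carry a CreER transgene (at Rosa26, per the study's methods) and have intact Ctcf alleles. Bone marrow was grown with GM-CSF for 6 days with fresh medium every 2 days, and per the study's methods 4-hydroxytamoxifen was added on the first day, the mice were adults of both sexes, and CD11c+ cells were selected with beads. WT cells were left untreated, WTL cells received 100 ng/ml of lipopolysaccharide (LPS, a bacterial cell wall component) for 3 h, WT + JSH23 cells received 100 µM JSH-23 for 3 h, and WTL + JSH23 cells received JSH-23 for 3 h and then LPS for 3 h. Whether the groups without JSH-23 received its solvent was not given in the sources used here. The treated and untreated libraries also differ in replicate numbers (1 to 3 with JSH-23, 4 to 6 without it), so anything else that differed between those numbers and an effect of JSH-23 cannot be told apart.

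LPS binds Toll-like receptor 4 on dendritic cells and activates NF-kB, MAP kinases and interferon regulatory factors, which together raise cytokine, chemokine and feedback genes. JSH-23 is a small diamine known to keep the NF-kB subunit RelA out of the nucleus, which lowers NF-kB-driven transcription. Other pathways that act in stressed myeloid cells raise some of the same genes: Nrf2 responds to oxidants and electrophiles, the integrated stress response acts through ATF4, and heat shock factor 1 responds to misfolded protein. Genes that are raised both by LPS and by such pathways are well known, among them Sqstm1, Gdf15 and Hspa1b.

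Each library held 24664724 to 34837847 expected counts, and the lowest Pearson correlation of log2 CPM between replicates of a group was 0.9905. TMM scaling (edgeR's weighted trimmed mean) raised the median log2 WTL/WT ratio of all genes by 0.33 against unscaled CPM and lowered that of WTL + JSH23 over WTL by 0.128. Both ratios stayed above 1 for all 39 genes without TMM and in TPM (read counts scaled for transcript length and library total). The rule had already set these ratios at 2 and 1.4 or more, so this is no check of the choice. In TPM, 17 of the 39 genes failed the rule. The summed CPM of 12 dendritic cell markers was 17700 to 18000 in WT, 16800 to 17300 in WT + JSH23, 20800 to 22000 in WTL and 18500 to 20100 in WTL + JSH23. The sum for 12 macrophage markers was 2990 to 3170, 2400 to 2420, 3410 to 3500 and 2800 to 2950 in the same order, and that for 8 neutrophil markers 293 to 307, 236 to 249, 263 to 271 and 206 to 222. Such sums can hide larger shifts of single markers. In WT + JSH23 against WT (edgeR, adjusted p under 0.05), 2 macrophage markers were higher and 8 lower. For dendritic cell markers these counts were 3 and 5, and for neutrophil markers 0 and 3. Over all genes tested, 18.8% were higher and 22.1% lower. Mean CPM went from 45.2 to 5.15 for Cx3cr1 and from 239.1 to 372.5 for Cd14, both macrophage markers. Of 10 T, NK and B cell markers and 12 fibroblast and erythroid markers, 1 each had enough reads to test, and 4 of the latter list were at 0 in all libraries. Pdgfra, the tested gene of the fibroblast and erythroid list, was at 0.172 to 0.313 CPM in WT and 0.253 to 0.768 in WT + JSH23. With LPS it was at 4.37 to 5.07 CPM in WTL and 1.43 to 1.67 in WTL + JSH23. Lck, the tested gene of the T, NK and B cell list, was at 0.917 to 2.17 CPM across the libraries. The untested genes of these lists are not part of these values. Of 10 mast cell and basophil markers 3 were tested and 3 were at 0 in all libraries. The 3 tested (Gata2, Hdc and Kit) summed to 9.5 to 34 CPM. The part of these shifts in the results was not tested, and in bulk RNA fewer cells of a type and less RNA per cell cannot be told apart.

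Replicate 3 of WTL + JSH23 stood apart for these genes. It was the highest of its group for 36 of the 39 (92.3%), against 38.4% of all genes tested (the exceptions were Cxcl5, Piwil2 and Lrrc75a), and lay a median of 0.289 log2 units above the mean of the other two. Without it, 34 of the 39 genes still met the rule, and Fabp3, Gja1, Irs2, Hspa1b and Htra4 did not. Replicate 3 of WT + JSH23, which the rule did not use, was the highest of its group for 27 of the 39 (69.2%), against 32.4% of all genes, by a median of 0.138 log2 units. Results are given with and without it where it bears on them.

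The 39 genes differed in how far each treatment alone raised them. The WTL/WT ratio ran from 2.03 to 11.7 (median 3.31), the ratio of WT + JSH23 to WT from 1.16 to 16.1 (median 2.44), and the ratio of WTL + JSH23 to WTL from 1.41 to 9.38 (median 1.74). Cells given both agents held 3.20 to 71.0 times the WT level (median 6.26). Over all genes tested these medians were 0.966, 0.994, 1.01 and 0.990. Transcript levels in WTL + JSH23, compared between genes per length, ran from 1.46 TPM for Lrrc75b to 5077 TPM for Sqstm1, with a median of 39 TPM for the 39 genes and 9.03 TPM for all genes tested.

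**Figure D1:**
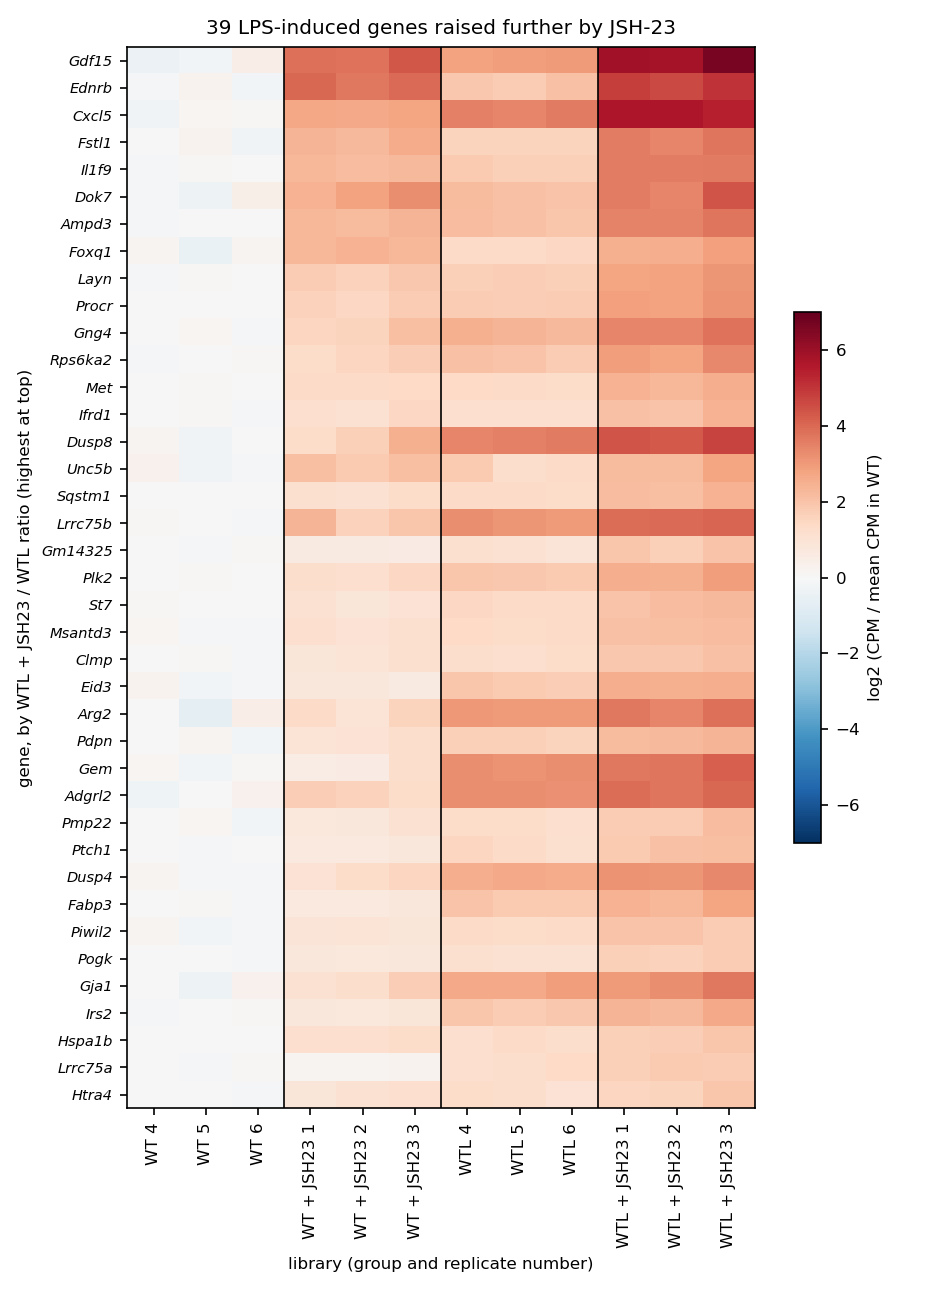
Heat map of log2 (CPM / mean CPM in WT) for the 39 genes (rows, highest ratio of WTL + JSH23 to WTL at the top) in the 12 libraries (columns, 4 groups of 3). Gdf15 and Cxcl5 are the darkest rows in WTL + JSH23, Gdf15 and Ednrb are darker in WT + JSH23 than in WTL, and Lrrc75a is the palest row in WT + JSH23.

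JSH-23 without LPS raised 38 of the 39 genes. This comparison, WT + JSH23 against WT, asks what the compound does to resting cells, and its WT + JSH23 libraries were not used to choose the genes (the WT libraries were, as the denominator of the LPS ratio). At an adjusted p under 0.05 in edgeR's quasi-likelihood test, 38 of 39 genes were higher, where 18.8% of all genes tested were higher. No member was lower (0 of 39, also 0 at an unadjusted p under 0.05 and 0 in DESeq2), where 22.1% of all genes were lower. In 27 of 39 the rise was also more than 2-fold, against 2.43% of all genes. All 3 WT + JSH23 libraries lay above all 3 WT libraries for each of the 39 genes, which held for 24.4% of all genes. The median log2 fold change was 1.29 for the 39 genes and -0.01 for all genes tested. Without replicate 3 of WT + JSH23 the median was 1.16 with 38 genes higher, 25 of them more than 2-fold.

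The member that was not called was Lrrc75a, a leucine-rich repeat protein gene. Its level was 4.8, 4.75 and 5.31 CPM in WT, 5.56, 5.68 and 5.92 in WT + JSH23, 11, 11.5 and 13.2 in WTL and 15.7, 17.7 and 17.1 in WTL + JSH23. The resting libraries did not overlap, but the log2 fold change of WT + JSH23 against WT was 0.21 (SE 0.0986, adjusted p = 0.0966), with a 95% interval from 0.0047 to 0.42. Its ratio of WTL + JSH23 to WTL was 1.41, near the threshold.

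**Figure D2:**
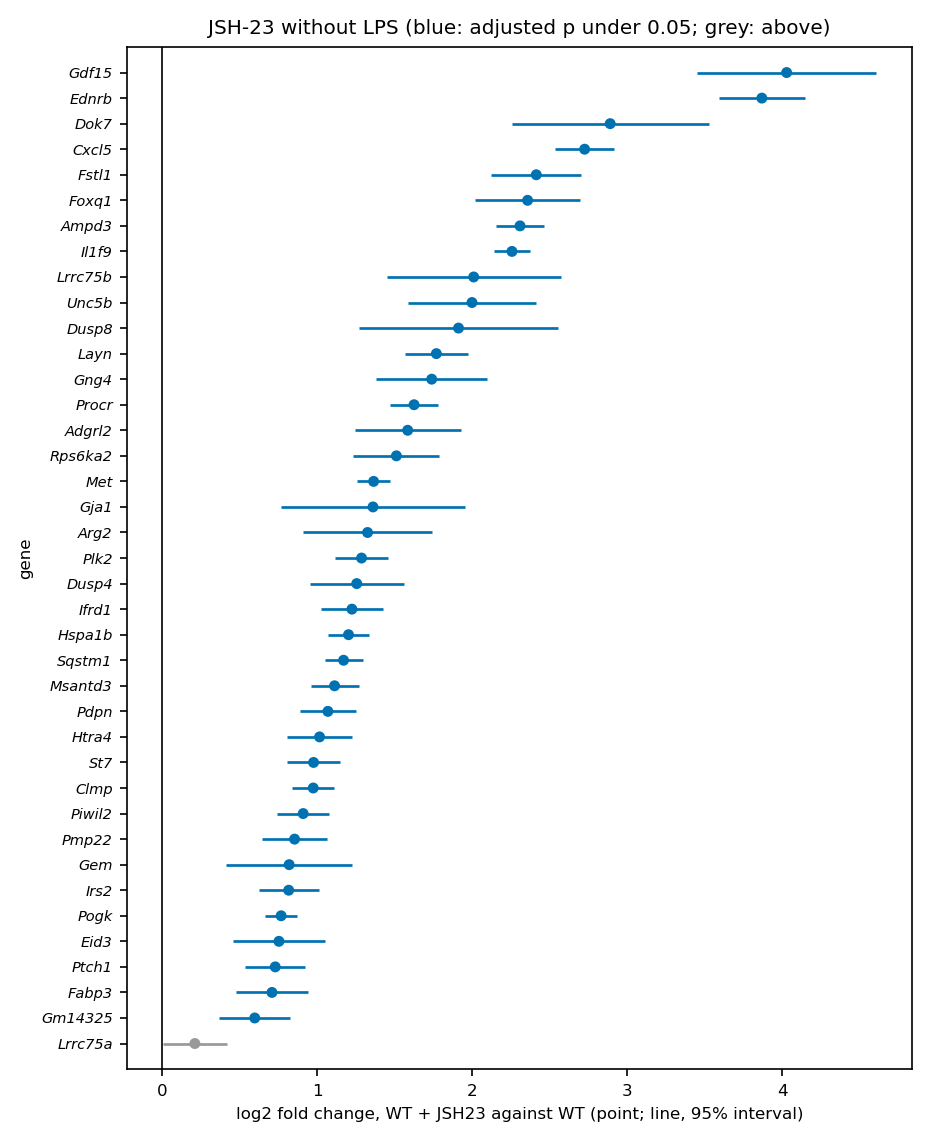
Log2 fold change of WT + JSH23 against WT for the 39 genes (points) with 95% intervals (lines), from the fit over all 12 libraries; blue marks an adjusted p under 0.05 and grey one above it. Values run from 0.21 for Lrrc75a to 4.03 for Gdf15, and each point lies right of 0.

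For the other LPS-induced genes, calls with JSH-23 at rest went both ways. Of the 653 protein-coding genes that met the LPS conditions and were not chosen, 154 (23.6%) were higher, 243 (37.2%) lower and 256 not called, and their median log2 fold change was -0.09. Among the 377 genes with a JSH-23 ratio under LPS between 1/1.4 and 1.4, 147 (39%) were higher and 59 (15.6%) lower at rest, with a median of 0.11. Among the 276 genes at 1/1.4 or less, 7 (2.54%) were higher and 184 (66.7%) lower, with a median of -0.41. The 2 JSH-23 comparisons share no library. The classes were thus set in libraries that were not used for the resting fold change, apart from the WT denominator. Both comparisons, however, set the same treated replicate numbers against the same untreated ones. Anything else that differed between those numbers, or a solvent given only with JSH-23, could move both ratios in the same direction. Its part in the pattern across the classes was not tested.

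**Figure D3:**
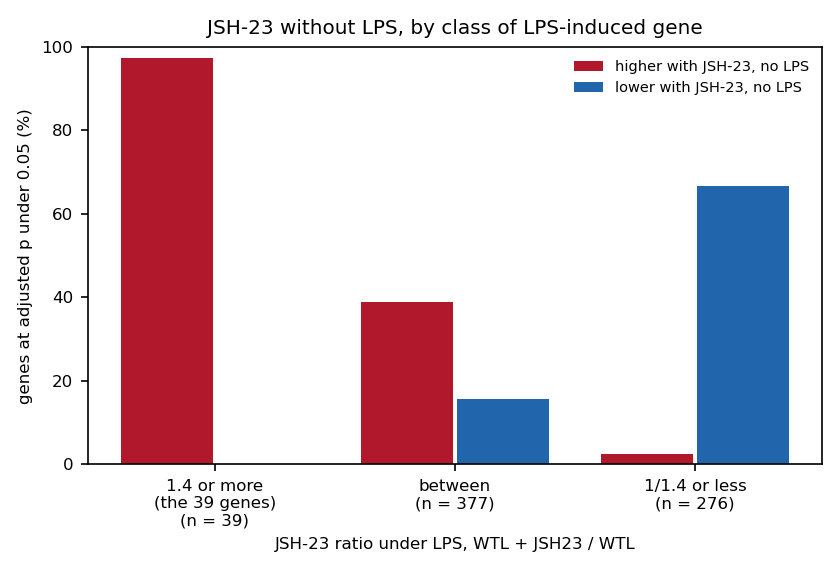
Percent of LPS-induced protein-coding genes that were higher (red) or lower (blue) at an adjusted p under 0.05 in WT + JSH23 against WT, by class of JSH-23 ratio under LPS (39, 377 and 276 genes). The share higher falls from 97.4% to 39% and 2.54% across the classes, and the share lower rises from 0 to 15.6% and 66.7%.

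The members were sorted by what their products are known to do, after they were known. Secreted cytokines, growth factors and related glycoproteins made up 4 of the 39 and held 4 of the 5 largest JSH-23 ratios under LPS (3.65 to 9.38). Gdf15, a TGF-beta family member induced by cell stress, was measured at 1.22, 1.45 and 2.24 CPM in WT, 23.6, 22.8 and 32.9 in WT + JSH23, 11.7, 12.5 and 12.9 in WTL and 94.8, 92.8 and 161 in WTL + JSH23. Every library with either agent lay above all WT libraries, with JSH-23 alone above LPS alone, and the groups did not overlap. The log2 fold change with JSH-23 at rest was 4.03 (SE 0.278, adjusted p = 1.20e-10), and the JSH-23 ratio under LPS was 9.38. Replicate 3 of WTL + JSH23 was far above the other two.

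Cxcl5, a chemokine that attracts neutrophils through CXCR2, was at 4.53, 5.75 and 5.62 CPM in WT, 35.1, 33.7 and 36.3 in WT + JSH23, 61.6, 57 and 67 in WTL and 263, 268 and 233 in WTL + JSH23. Here LPS alone gave the higher level of the 2 single treatments, and it had the largest LPS ratio of the 39 genes (11.7). Cxcl5 was one of the 3 members whose WTL + JSH23 replicate 3 was not the highest. JSH-23 raised it at rest by 2.73 (SE 0.0899, adjusted p = 1.49e-15) on the log2 scale. Il1f9, which encodes the epithelial and myeloid cytokine IL-36 gamma, was at 26.3, 29.1 and 28 CPM in WT, 140.0, 123 and 136 in WT + JSH23, 98.2, 90.0 and 88.1 in WTL and 336, 330.0 and 343 in WTL + JSH23. The replicates of Il1f9 lay close together, with JSH-23 alone above LPS alone, and the resting log2 change was 2.26 (SE 0.0558, adjusted p = 2.47e-17). Fstl1, a secreted glycoprotein of the follistatin-like family, was at 1.56, 1.85 and 1.31 CPM in WT, 8.24, 7.52 and 9.67 in WT + JSH23, 4.65, 4.6 and 4.65 in WTL and 18.7, 16.8 and 21.3 in WTL + JSH23. Its order was that of Il1f9 at a far lower level, and JSH-23 at rest raised it by 2.41 (SE 0.139, adjusted p = 7.75e-12) on the log2 scale. In WTL + JSH23 these transcripts stood at 336 TPM for Il1f9, 266 for Cxcl5, 138 for Gdf15 and 7.74 for Fstl1.

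Of 54 other secreted cytokine, chemokine and growth factor genes tested, 15 were higher, 22 lower and 17 not called with JSH-23 at rest. The shares over all genes tested were 18.8% higher and 22.1% lower. These 3 listed members (Il1f9, Gdf15 and Cxcl5) thus rose within a list that moved both ways. Of the other CXC chemokines on it, Cxcl1 (1.325), Cxcl2 (0.91), Cxcl3 (1.65) and Cxcl16 (0.18) also rose on the log2 scale. Cxcl9 (-0.94), Cxcl10 (-2.64) and Cxcl11 (-3.71) fell. The JSH-23 ratio under LPS was 1.23 for Cxcl1, 0.97 for Cxcl2 and 1.28 for Cxcl3, below the threshold.

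**Figure D4:**
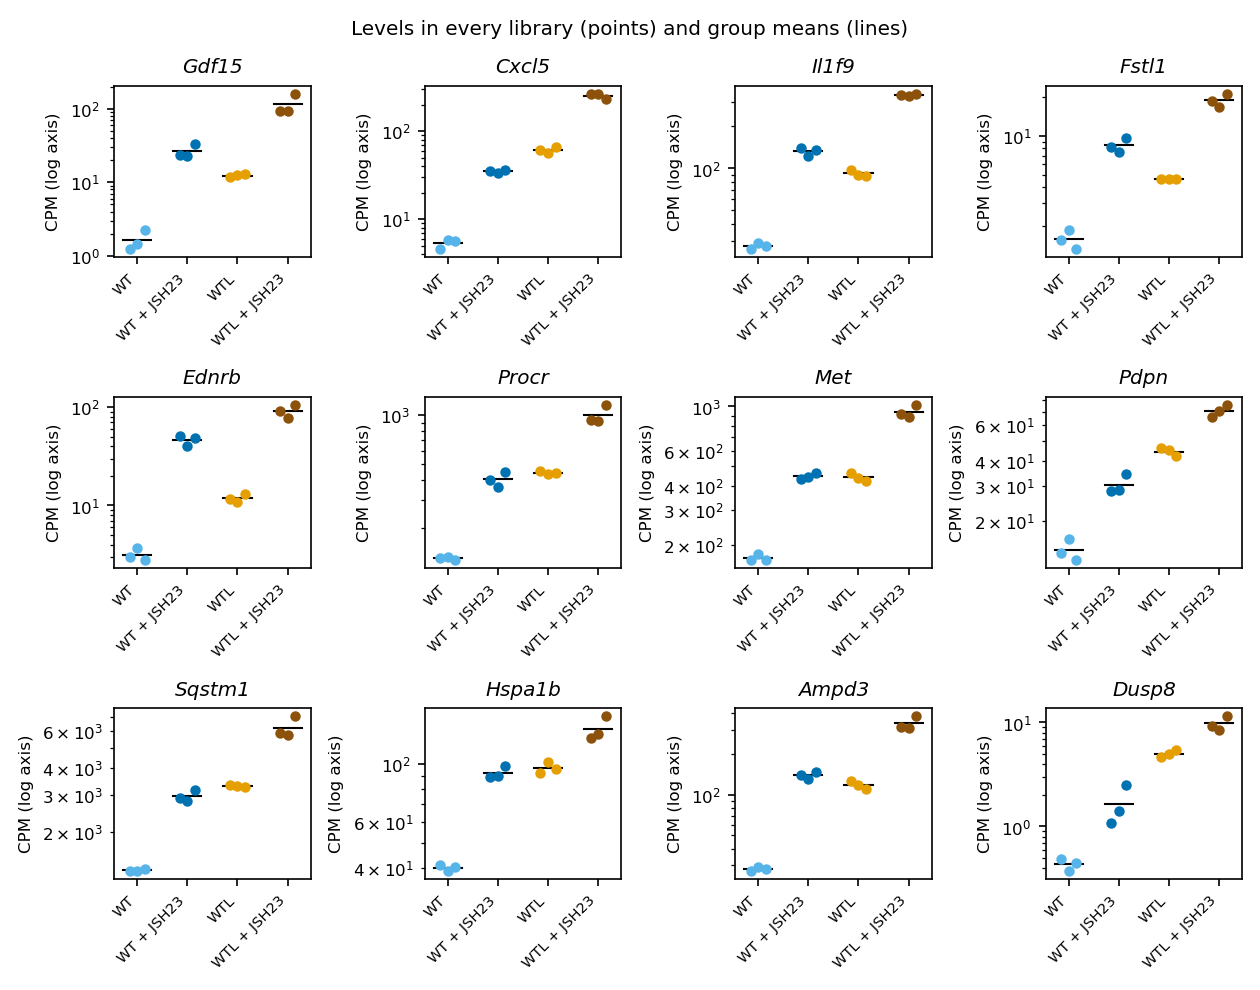
CPM on log axes for 12 of the genes in every library (points, 3 a group) with group means (lines), for WT, WT + JSH23, WTL and WTL + JSH23. WTL + JSH23 is the highest group in each panel, and JSH-23 alone lies above LPS alone for Gdf15, Il1f9, Fstl1, Ednrb and Ampd3.

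Receptors and other surface proteins were the largest group, with 11 of the 39 genes, all 11 higher with JSH-23 at rest and 8 of them more than 2-fold. Ednrb, the G protein-coupled endothelin receptor type B, was at 3, 3.73 and 2.76 CPM in WT, 50.6, 40.5 and 48.6 in WT + JSH23, 11.7, 10.8 and 13.2 in WTL and 91.6, 78.2 and 106 in WTL + JSH23. JSH-23 alone gave 3.92 times the level of LPS alone, and no groups overlapped. The log2 change at rest was 3.87 (SE 0.133, adjusted p = 2.53e-15). Procr, the endothelial protein C receptor, was at 131, 134 and 127 CPM in WT, 396, 363 and 448 in WT + JSH23, 452, 432 and 440.0 in WTL and 941, 924 and 1160 in WTL + JSH23, and its WT + JSH23 and WTL libraries overlapped. Procr came next to Sqstm1 in abundance per length (1145 TPM in WTL + JSH23), and JSH-23 at rest raised it by 1.62 (SE 0.0742, adjusted p = 2.19e-13) on the log2 scale. Met, the receptor tyrosine kinase for hepatocyte growth factor, was at 169, 182 and 168 CPM in WT, 432, 442 and 461 in WT + JSH23, 462, 438 and 421 in WTL and 918, 882 and 1020 in WTL + JSH23. Either agent alone gave Met levels in the same range, the libraries with both lay above them, and JSH-23 at rest gave a resting log2 change of 1.36 (SE 0.051, adjusted p = 1.01e-14).

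The start-site regions of these 3 receptor genes are shown because each holds a letter match to a motif of a pathway named above, from RefSeq (GRCm38.p6), 250 bases before to 50 after the start, 5′ to 3′ on the gene's strand. Capitals mark, on either strand, GGGNNNTTCC (NF-kB) in Ednrb, overlapping TGANTCA (AP-1) and TGACNNNGC (antioxidant response element) in Procr and Met, and CACGTG (E-box) in Met. In that order these were found in 5.0%, 10%, 15% and 17.5% of the members' windows. Among all windows the shares were 5.56%, 7.81%, 12.4% and 7.15%.
Ednrb (chr14:103843652-103843951, minus strand): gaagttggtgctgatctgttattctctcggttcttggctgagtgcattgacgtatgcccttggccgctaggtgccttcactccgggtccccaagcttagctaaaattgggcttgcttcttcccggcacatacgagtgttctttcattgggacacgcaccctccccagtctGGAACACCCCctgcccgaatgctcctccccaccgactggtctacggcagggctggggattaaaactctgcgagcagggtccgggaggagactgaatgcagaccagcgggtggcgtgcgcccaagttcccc
Procr (chr2:155750967-155751266, plus strand): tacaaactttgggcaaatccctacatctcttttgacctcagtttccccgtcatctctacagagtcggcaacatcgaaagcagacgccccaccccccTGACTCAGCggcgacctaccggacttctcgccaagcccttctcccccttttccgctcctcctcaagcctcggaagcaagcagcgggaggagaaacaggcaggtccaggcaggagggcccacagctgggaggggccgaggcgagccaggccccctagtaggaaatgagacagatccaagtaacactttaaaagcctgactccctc
Met (chr6:17463707-17464006, plus strand): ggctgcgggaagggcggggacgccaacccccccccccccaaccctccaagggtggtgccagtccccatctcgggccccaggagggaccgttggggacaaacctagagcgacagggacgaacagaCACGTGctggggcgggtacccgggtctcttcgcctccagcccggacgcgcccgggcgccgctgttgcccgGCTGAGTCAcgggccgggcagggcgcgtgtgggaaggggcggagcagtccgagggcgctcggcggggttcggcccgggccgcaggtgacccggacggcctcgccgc

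In Ednrb the match lay at -80 to -71 from the start site, in Procr the overlapping matches at -154 to -146, and in Met at -56 to -48 with the E-box at -126 to -121. Layn, a hyaluronan receptor of the C-type lectin fold, was at 5.5, 6.32 and 5.93 CPM in WT, 20.4, 18.4 and 21.8 in WT + JSH23, 19.1, 19.9 and 19 in WTL and 40.6, 41.3 and 51.3 in WTL + JSH23, with the 2 single treatments overlapping and a resting log2 change of 1.77 (SE 0.0983, adjusted p = 4.47e-12). Ptch1, the Hedgehog receptor, averaged 11.2 CPM in WT, 18.5 in WT + JSH23, 28.3 in WTL and 44.5 in WTL + JSH23, with a resting change of 0.73 (SE 0.0935, adjusted p = 1.54e-06). Pmp22, a tetraspan membrane protein best known from myelin, averaged 28.1 CPM in WT, 51.1 in WT + JSH23, 67.3 in WTL and 106 in WTL + JSH23, with a resting change of 0.85 (SE 0.101, adjusted p = 4.82e-07). For both, LPS alone lay above JSH-23 alone in every library.

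The remaining surface proteins were Unc5b, a netrin receptor, Clmp, an adhesion molecule of the immunoglobulin family, Pdpn, the CLEC-2 ligand podoplanin, Adgrl2, a latrophilin-type adhesion receptor, and Gja1, the gap junction protein connexin 43. Their resting log2 changes ran from 0.97 (Clmp) and 1.07 (Pdpn) to 1.36 (Gja1), 1.58 (Adgrl2) and 2.00 (Unc5b). Pdpn was at 14, 16.4 and 12.8 CPM in WT, 28.4, 28.5 and 34.3 in WT + JSH23, 46.1, 45 and 42.1 in WTL and 66.1, 70.5 and 75.7 in WTL + JSH23, which put the 4 groups in 1 order with no overlap. Adgrl2 had one of the larger LPS ratios (9.4) and one of the smaller JSH-23 ratios under LPS (1.57). Unc5b and Gja1 were low, at means of 6.62 and 5.2 CPM in WTL + JSH23.

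Of the members, 8 regulate intracellular signalling. Dusp8 and Dusp4, phosphatases that switch off MAP kinases, were higher with LPS alone than with JSH-23 alone. Dusp8 was at 0.489, 0.37 and 0.448 CPM in WT, 1.08, 1.41 and 2.48 in WT + JSH23, 4.61, 4.97 and 5.39 in WTL and 9.28, 8.52 and 11.6 in WTL + JSH23, so LPS alone exceeded JSH-23 alone in every library, and its level was low (3.30 TPM in WTL + JSH23). Dusp4 averaged 2.01 CPM in WT, 4.83 in WT + JSH23, 12.2 in WTL and 18.7 in WTL + JSH23, in the same order. JSH-23 at rest raised Dusp8 by 1.91 (SE 0.308, adjusted p = 2.88e-05) and Dusp4 by 1.25 (SE 0.145, adjusted p = 3.69e-07) on the log2 scale. Of 17 other MAPK feedback genes tested, 4 were higher at rest (Dusp1, Dusp14, Gadd45a and Gadd45g), 7 lower and 6 not called. Over all genes tested, 18.8% were higher and 22.1% lower. The 2 members thus rose where Dusp2 (-0.48), Dusp5 (-0.30) and Dusp6 (-0.70) fell on the log2 scale.

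Plk2, a polo-like kinase that p53 and other stress signals induce, was at 90.2, 96.3 and 90.9 CPM in WT, 217, 209 and 251 in WT + JSH23, 352, 340.0 and 329 in WTL and 542, 528 and 706 in WTL + JSH23. It came after Sqstm1 and Procr in abundance per length (342 TPM in WTL + JSH23), its groups did not overlap, and the resting log2 change was 1.29 (SE 0.0834, adjusted p = 4.76e-11). Gng4, a G protein gamma subunit, was at 1.87, 2.13 and 1.79 CPM in WT, 5.53, 5.79 and 8.17 in WT + JSH23, 10.7, 10.2 and 9.39 in WTL and 20.7, 20.5 and 27.1 in WTL + JSH23, with a resting change of 1.74 (SE 0.171, adjusted p = 3.20e-08). Dok7, an adaptor known for activating the muscle kinase MuSK, was at 0.703, 0.626 and 1.03 CPM in WT, 4.27, 5.57 and 7.59 in WT + JSH23, 3.68, 3.27 and 3.08 in WTL and 9.32, 8.48 and 16.8 in WTL + JSH23. Replicate 3 was the highest in both JSH-23 groups for Gng4 and Dok7. Dok7 changed by 2.89 (SE 0.305, adjusted p = 9.22e-08) at rest, and by 2.65 without replicate 3 of WT + JSH23.

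Dusp8 and Plk2 are shown because their start-site regions (RefSeq, GRCm38.p6, as above) hold the palindrome TGACGTCA (cAMP response element, bound by CREB and ATF factors), marked in capitals. The RefSeq start used for Dusp8 lies within the GENCODE bounds of the gene, but the end of its window matched no GENCODE transcript of Dusp8. Positions in Dusp8 therefore hold for the RefSeq start only.
Dusp8 (chr7:142095235-142095534, minus strand): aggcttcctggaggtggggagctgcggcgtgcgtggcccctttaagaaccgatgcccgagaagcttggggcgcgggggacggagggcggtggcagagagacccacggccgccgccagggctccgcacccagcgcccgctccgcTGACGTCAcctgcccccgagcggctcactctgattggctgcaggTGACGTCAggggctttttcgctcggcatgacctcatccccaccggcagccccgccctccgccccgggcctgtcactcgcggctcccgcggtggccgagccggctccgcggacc
Plk2 (chr13:110394794-110395093, plus strand): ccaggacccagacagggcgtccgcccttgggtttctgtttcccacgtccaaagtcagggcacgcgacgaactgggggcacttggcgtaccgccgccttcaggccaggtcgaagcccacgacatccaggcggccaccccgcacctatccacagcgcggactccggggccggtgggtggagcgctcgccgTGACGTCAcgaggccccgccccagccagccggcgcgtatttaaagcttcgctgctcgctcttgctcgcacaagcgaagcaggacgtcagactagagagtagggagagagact

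In Dusp8 the palindrome occurred at -107 to -100 and again at -63 to -56, and in Plk2 at -62 to -55. Rps6ka2 (the ribosomal S6 kinase RSK3) averaged 19.8 CPM in WT, 56.5 in WT + JSH23, 76.7 in WTL and 164 in WTL + JSH23, with a resting log2 change of 1.51 (SE 0.133, adjusted p = 6.10e-09). Irs2, an adaptor of insulin and cytokine receptors, averaged 10.1 CPM in WT, 17.7 in WT + JSH23, 36.4 in WTL and 54.9 in WTL + JSH23, with a change of 0.82 (SE 0.0931, adjusted p = 2.98e-07). Gem, a small GTPase that inhibits calcium channels, had an LPS ratio of 9.41 and kept 8.43 after JSH-23, the highest of the 39 genes, with a resting change of 0.82 (SE 0.195, adjusted p = 0.00174). In each of these 3 genes LPS alone exceeded JSH-23 alone in every library.

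Stress and protein quality genes numbered 4, and all 4 rose more than 2-fold with JSH-23 at rest. Sqstm1, the autophagy receptor p62 and an Nrf2 target, was the most abundant member at 5077 TPM in WTL + JSH23. Its level was 1310, 1300 and 1340 CPM in WT, 2900, 2800 and 3160 in WT + JSH23, 3350, 3300 and 3260 in WTL and 5870, 5750 and 7100 in WTL + JSH23. WTL lay just above WT + JSH23 with no overlap, and the resting log2 change was 1.17 (SE 0.0587, adjusted p = 9.66e-13). Hspa1b, an inducible HSP70 chaperone, was at 40.9, 38.8 and 40.3 CPM in WT, 88.9, 89.4 and 97.8 in WT + JSH23, 91.9, 101 and 95.1 in WTL and 125, 130.0 and 152 in WTL + JSH23. The 2 single treatments overlapped, and JSH-23 at rest raised Hspa1b by 1.20 (SE 0.0629, adjusted p = 1.78e-12) on the log2 scale. Hspa1b is nearly identical to Hspa1a and its expected counts were fractional in all 12 libraries, so reads may be split between them, and Hspa1a averaged 34.4, 89.3, 64.7 and 124 CPM in WT, WT + JSH23, WTL and WTL + JSH23.

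The start-site region of Hspa1b (RefSeq, GRCm38.p6, as above) is shown for its match to GAANNTTC, the inverted repeat of a heat shock element, at -104 to -97 (capitals). This pattern was found in 7.5% of the members' windows and 7.86% of all windows.
Hspa1b (chr17:34959189-34959488, minus strand): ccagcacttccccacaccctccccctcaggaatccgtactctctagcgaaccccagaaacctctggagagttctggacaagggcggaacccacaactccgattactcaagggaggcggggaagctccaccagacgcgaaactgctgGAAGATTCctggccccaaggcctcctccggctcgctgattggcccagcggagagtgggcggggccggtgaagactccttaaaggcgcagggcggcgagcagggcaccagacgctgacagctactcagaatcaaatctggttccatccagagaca

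Ifrd1, a transcriptional coregulator raised in cell stress, was at 49, 50.6 and 46.4 CPM in WT, 108, 102 and 131 in WT + JSH23, 111, 108 and 108 in WTL and 201, 191 and 264 in WTL + JSH23. Its single treatments overlapped, and the resting change was 1.22 (SE 0.0963, adjusted p = 1.00e-09). Htra4, a secreted serine protease of the HtrA family, averaged 18.3 CPM in WT, 37.1 in WT + JSH23, 41.5 in WTL and 58.6 in WTL + JSH23, with a resting change of 1.01 (SE 0.1, adjusted p = 3.33e-08), and had the lowest JSH-23 ratio under LPS (1.41). Beside these members, other genes of the same stress lists moved mainly upward with JSH-23 at rest. Over all genes tested, 18.8% were higher and 22.1% lower. Of 23 other Nrf2 targets tested, 21 were higher and 2 (G6pdx and Tkt) lower. Hmox1 changed by 1.75 and Srxn1 by 1.65 on the log2 scale. Of 20 other heat shock and chaperone genes, 18 were higher and 0 lower, and of 23 other autophagy and lysosome stress genes 14 were higher and 3 (Atg16l1, Uvrag and Mitf) lower.

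Of 31 other integrated stress response genes, the list that holds Gdf15, 25 were higher, 1 (Wars) was lower and 5 were not called. Chac1 (4.27), Trib3 (3.27) and Asns (2.56) also rose, but at mean levels of 0.613, 0.522 and 5.82 CPM in WTL against 0.178, 0.841 and 4.99 in WT they did not meet the LPS conditions. Of 19 other p53 targets, the list of Gdf15 and Plk2, 6 were higher, 6 lower and 7 not called. The next 4 lists held no member. Among 31 NF-kB targets 6 were higher and 19 lower with JSH-23 at rest, among 30 interferon-stimulated genes 0 were higher and 29 lower, among 29 AP-1 and immediate early factors 6 and 11, and among 20 cAMP and CREB targets 11 and 3. Beside each list of this paragraph, 18.8% of all genes tested were higher and 22.1% lower.

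Metabolic enzymes and carriers numbered 3. Ampd3, an AMP deaminase, was at 27.1, 29.1 and 28.3 CPM in WT, 140.0, 131 and 148 in WT + JSH23, 126, 118 and 110.0 in WTL and 315, 312 and 383 in WTL + JSH23, with JSH-23 alone above LPS alone, no overlap and a resting change of 2.31 (SE 0.0735, adjusted p = 8.60e-16). Arg2, the mitochondrial arginase, was at 1.59, 1.02 and 2.17 CPM in WT, 3.96, 3.15 and 4.63 in WT + JSH23, 12.9, 12.4 and 12.4 in WTL and 20.2, 17.2 and 22.9 in WTL + JSH23, with the opposite order of the single treatments and a resting change of 1.32 (SE 0.2, adjusted p = 1.28e-05). Of 13 other polyamine, arginine and nitric oxide genes 8 were higher, 1 (Gch1) lower and 4 not called, with Odc1, which makes putrescine, changed by 1.63 on the log2 scale. The shares over all genes tested were 18.8% higher and 22.1% lower. Fabp3, a fatty acid binding protein, averaged 6.71 CPM in WT, 11 in WT + JSH23, 25.2 in WTL and 38.5 in WTL + JSH23, with a change of 0.71 (SE 0.11, adjusted p = 1.97e-05). Ampd3, Arg2 and Fabp3 each overlap a gene on the other strand (Rnf141, Vti1b and Zcchc17), and the strand setting of the counting was not given in the sources used here. Those partners differed little between the groups, at mean CPM of 31.3 to 40.1 for Rnf141, 37.8 to 46.1 for Vti1b and 11.6 to 13.3 for Zcchc17.

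Genes linked to transcription, chromatin or RNA silencing numbered 6, with resting changes from 0.60 to 2.36. Foxq1, a forkhead factor, was at 1.25, 0.797 and 1.24 CPM in WT, 5.44, 5.93 and 5.41 in WT + JSH23, 2.75, 2.77 and 2.99 in WTL and 6.17, 6.33 and 8.12 in WTL + JSH23. JSH-23 alone brought Foxq1 close to its level with both agents, with a resting change of 2.36 (SE 0.163, adjusted p = 1.21e-10), and its LPS ratio after JSH-23 (1.23) was the lowest of the 39 genes. Gm14325, a predicted zinc finger gene of a multigene family whose counts were fractional in every library, was at 4.22, 3.76 and 4.28 CPM in WT, 6.21, 6.22 and 6.06 in WT + JSH23, 8.83, 8.43 and 7.55 in WTL and 15.6, 12.9 and 16.5 in WTL + JSH23, with a resting change of 0.60 (SE 0.111, adjusted p = 1.47e-04). Pogk, a protein derived from a transposase, averaged 39.2 CPM in WT, 66.8 in WT + JSH23, 84.5 in WTL and 129 in WTL + JSH23, with a change of 0.77 (SE 0.0505, adjusted p = 5.84e-11). Msantd3, Piwil2 (an Argonaute-family protein of the piRNA pathway) and Eid3 changed by 1.11, 0.91 and 0.75. Eid3 lies within Txnrd1, the Nrf2-driven thioredoxin reductase gene, on the same strand, so reads of both may not be told apart, and Txnrd1 averaged 719 CPM in WT, 1167 in WT + JSH23, 1530 in WTL and 2082 in WTL + JSH23.

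The last 3 members have less settled roles. Lrrc75b, the least abundant member, was at 0.306, 0.285 and 0.276 CPM in WT, 1.51, 0.868 and 1.12 in WT + JSH23, 2.75, 2.5 and 2.26 in WTL and 4.36, 4.46 and 4.8 in WTL + JSH23, with a resting change of 2.01 (SE 0.27, adjusted p = 2.81e-06), and Lrrc75a is described with the resting comparison. St7 averaged 8.14 CPM in WT, 16 in WT + JSH23, 21.1 in WTL and 36 in WTL + JSH23, with a change of 0.98 (SE 0.0812, adjusted p = 2.39e-09).

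After JSH-23 the members were still higher with LPS than without it, but mostly by a smaller ratio. The ratio of WTL + JSH23 to WT + JSH23 is described with no test, because the WTL + JSH23 libraries were used to choose the genes. As the treatments are described, WTL + JSH23 cells may also have had more time after JSH-23 was added. That time and an effect of LPS cannot be told apart in this ratio. It was above 2 for 29 of the 39 genes (6.08% of all genes), with a range of 1.23 to 8.43 and a median of 2.41. All 3 WTL + JSH23 libraries lay above all 3 WT + JSH23 libraries for each of the 39 genes (28.9% of all genes). For 37 genes this ratio was smaller than the WTL/WT ratio, and for 2, Gm14325 (2.43 against 2.03) and Lrrc75a (2.94 against 2.40), it was larger. The share of all genes with a smaller ratio was not computed, so the 37 are not shown to be particular to these genes. Without replicate 3 of WTL + JSH23 the ratio was above 2 for 27 genes.

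**Figure D5:**
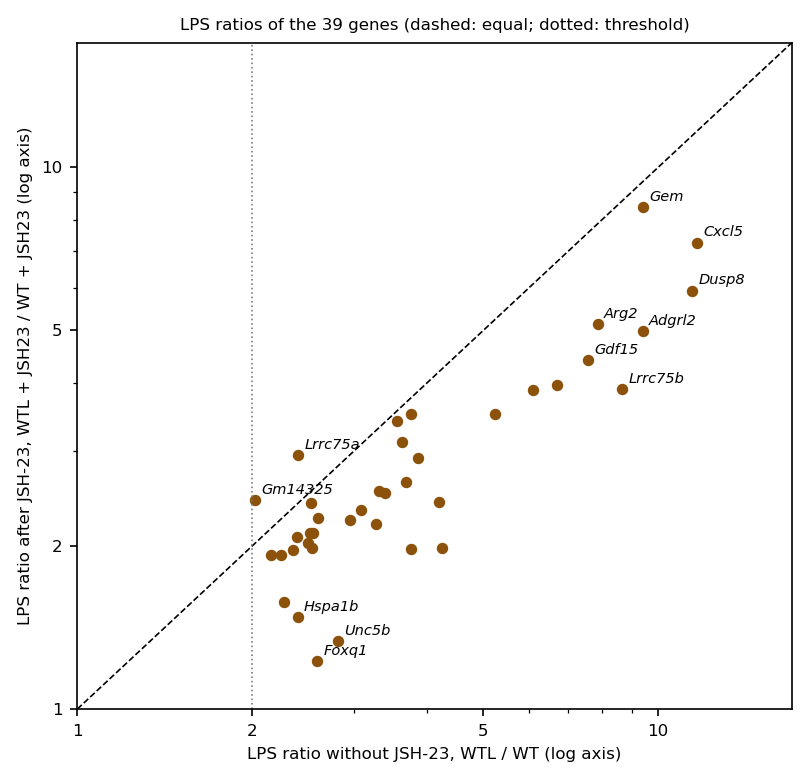
LPS ratio after JSH-23 (WTL + JSH23 over WT + JSH23, vertical) against LPS ratio without it (WTL over WT, horizontal) for the 39 genes, both on log axes, with a dashed line of equal ratios and a dotted line at the threshold of 2. Of the points, 37 lie below the dashed line; Gem (8.43) and Cxcl5 (7.26) are the highest and Foxq1 (1.23) is the lowest.

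The 2 single treatments ranked the genes in different ways. In 7 genes all WT + JSH23 libraries lay above all WTL libraries (37.8% of all genes): Gdf15, Ednrb, Fstl1, Il1f9, Dok7, Ampd3 and Foxq1. In 25 genes all WTL libraries lay above all WT + JSH23 libraries (33.7% of all genes), and in 7 more (Layn, Procr, Met, Ifrd1, Unc5b, Hspa1b and Htra4) they overlapped. In WTL + JSH23, 33 genes lay between the level given by adding the 2 single rises to the WT mean and that given by multiplying the 2 ratios. The share of all genes between these levels was not computed. Gm14325 and Lrrc75a were above the product (15 against 12.5 CPM and 16.8 against 13.8 CPM), and Foxq1, Unc5b, Hspa1b and Htra4 were below the sum. For Foxq1 the mean was 6.87 CPM against a sum of 7.33, and for Hspa1b 136 against 148. As a log2 difference of LPS effects with and without JSH-23, the genes ran from -1.16 to 0.29 with a median of -0.42 (0.03 over all genes). The possible difference in time after JSH-23 bears on the sum, the product and this difference as well.

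Of the 39 genes, 28 had a RefSeq start-site window (40 windows) and 11 did not. TGACGTCA was found in 4 of the 40 windows (10%, Dusp8, Plk2, Pogk and St7) against 1.79% of all 32851 windows, and CACGTG in 7 (17.5%, among them Gdf15 and Ampd3) against 7.15%. TGACNNNGC was found in 6 windows (15%) against 12.4%, TGANTCA in 4 (10%) against 7.81%, GAANNTTC in 3 (7.5%) against 7.86%, and GGGNNNTTCC in 2 (5.0%, Ednrb and Fabp3) against 5.56%. TGATGNAAT, the ATF4-bound C/EBP-ATF element, was found in 0 of the 40 windows against 0.965% of all. These shares are descriptions of letters in the windows, some windows belong to the same gene, and no test was made.

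The genes lay on 16 chromosomes, with at most 4 on any one, and 2 pairs were within 1 Mb (GRCm38, GENCODE M21 gene bounds). Met (chr6:17463800-17573980) and St7 (chr6:17692933-17943025) are 118953 bases apart. Capza2, between them, fell with JSH-23 at rest (log2 change -0.51, SE 0.0497, adjusted p = 2.95e-08), while Cav1 and Cav2 on the far side of Met rose by 0.66 and 0.74. Pmp22 and Lrrc75a on chromosome 11 are 480459 bases apart. The median transcript length was 2664 bases for the 39 genes, 2517 for all protein-coding genes tested and 2987 for the other LPS-induced genes.

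Genes lay close to each threshold on both sides. On the JSH-23 ratio, Htra4 (1.412), Lrrc75a (1.414) and Hspa1b (1.417) were just inside, and Il17ra (1.399), Il10 (1.386) and Inhba (1.386) just outside. On the LPS ratio, Gm14325 (2.03), Pogk (2.16) and Ifrd1 (2.24) were inside and Kctd1 (1.998), Lonrf1 (1.988) and Col5a3 (1.966) outside. On the WTL level, Lrrc75b (2.5 CPM), Foxq1 (2.84) and Dok7 (3.34) were inside and Ttc9 (1.79), Prkaa2 (1.77) and Rgcc (1.34) outside. Expected counts were fractional in at least 1 library for 13 of the genes and in all 12 for 7, and 8 overlap another protein-coding gene (Ampd3, Arg2, Fabp3, Pogk, Sqstm1, Layn, Foxq1 and Eid3). With deposited TPM in place of CPM, 22 of the 39 met the rule, while 11 had an LPS ratio under 2 and 6 were under 2 TPM in WTL.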

How the data were processed

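The authors deposited, per gene and library, expected counts and TPM from RSEM after alignment with STAR to mm10 with GENCODE genes. The submitters' processing notes give STAR 2.6.0c, and the study's reporting summary names a different release. Labels name rRNA depletion and the study's methods a poly(A) kit, and which was used was not settled. Deposited expected counts were rounded to whole numbers, filtered with filterByExpr (14357 genes kept) and scaled by TMM (factors 0.859 to 1.12), and CPM are on that scale. Deposited TPM served for comparisons between genes and as an alternative. WT + JSH23 was compared with WT by edgeR 4.0.16 (R 4.3.3) quasi-likelihood F-tests with 1 mean per group over all 12 libraries (8 residual degrees of freedom) and Benjamini-Hochberg adjustment over all genes tested, called at an adjusted p under 0.05. Log2 changes carry SEs from that fit. DESeq2 1.42.0 was an alternative. The test was checked on simulated data drawn from the kind of model it assumes. Those data held no outlying replicate and no difference between replicate sets, so the check does not cover these. Replicates of a group differed by more than sampling noise (lowest chi-square per degree of freedom 2.32). P-values measure the spread between libraries, which the study calls biological replicates. The members, gene lists and role groups were chosen with earlier results of these data known. Named by rule were the 10 members with the largest JSH-23 ratio under LPS at 10 CPM or more in WTL + JSH23, the 10 most abundant in TPM, the 5 highest and 5 lowest resting changes at 5 CPM or more, members on a list, and the 3 genes on either side of each threshold. The other members, the neighbours of members and the example list genes were named after their values were seen. Lists not given with the results held no member, and with JSH-23 at rest the higher and lower genes among those tested were 3 and 6 of 19 for the unfolded protein response, 7 and 7 of 23 for hypoxia, 6 and 0 of 9 for metallothionein, 15 and 0 of 20 for ubiquitin and proteasome, 6 and 4 of 15 for prostaglandin, 7 and 5 of 19 for cholesterol synthesis, 2 and 13 of 22 for apoptosis and 3 and 3 of 7 for aryl hydrocarbon receptor genes. Over all genes tested, 18.8% were higher and 22.1% lower.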

Additional observations from a re-analysis of the deposited data

How the results depend on the processing

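The count of 38 members higher with JSH-23 at rest was the same with DESeq2, with DESeq2 size factors or upper quartile scaling in edgeR, with no filter on low counts, with the resting libraries alone and without each replicate in turn. It was 27 where a 2-fold change was also required, and the count lower was 0 in each. Of 702 member calls recomputed, 691 kept their side of the threshold and direction, 11 lost the call under the 2-fold requirement, and 0 reversed. Settings without a WTL or WTL + JSH23 library kept all libraries of this comparison, so their calls could change little. The 2-fold setting reused the main fit, so its directions could not change. The number of genes that met the rule was 39, 40 with DESeq2 size factors (36 of the 39 kept), 39 with upper quartile scaling (38 kept), 40 with no filter (39 kept), 51 at a JSH-23 ratio of 1.3 and 36 at 1.5. In deposited TPM it was 30, of which 22 were among the 39; of the 17 lost, 11 had a TPM-based LPS ratio under 2 and 6 were under 2 TPM in WTL, and 0 had a JSH-23 ratio under 1.4. Without each replicate in turn it was 34 to 45, with 32 of the 39 kept each time. The LPS ratio after JSH-23 was above 2 for 29 genes, 30 with DESeq2 size factors, 25 with upper quartile scaling and 27 to 32 without each replicate in turn. No paired analysis was possible because WT and WT + JSH23 share no replicate number and the other comparisons were described without a test. Deviations of same-numbered libraries from their group means correlated across genes at 0.0142 to 0.0614. For differently numbered libraries of the same groups the values were -0.0564 to 0.0355. Whether equal numbers share a source was not tested. Depth limits the members of lowest level, such as Lrrc75b and Dusp8, most.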
